A study of Mus musculus with 12 samples.

Results

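Mt1, Mt2, Mt3, Mtf1, Slc30a1 and Slc39a14 encode 3 metallothioneins, the zinc sensor that controls them and a pair of zinc transporters. They are 6 of the 45706 genes listed for BN1-Tie2-EGFP cells, a murine hepatoblastoma (HB) cell line that was kept in normoxia or hypoxia. The genes were chosen by name with earlier results of these libraries known, and Mt1 and Mt2 were selected on their measured rise in hypoxia. For these 6 genes, any value that sets hypoxia against normoxia, or compares the hypoxia responses of different cells, is therefore given as a description with no test. Sorted and unsorted cells are compared at the same oxygen level. For Mt1 and Mt2 these comparisons are not independent of the choice, because values of every group may have entered it. A choice of genes high in UH cells lowers SH minus UH, and one of genes low in SN cells lowers SN minus UN. Genes high in SH or low in UN cells push the other way. Both differences are therefore given for Mt1 and Mt2 with no test. A filter on low values (a mean of at least 0.1 TPM over the 12 libraries) left 18909 genes, among them 5 of the 6, and Mt3 did not pass it.

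BN1 cells were derived from a liver tumor raised in FVB/N mice with vectors for a deletion mutant of β-catenin (B) and a missense mutant of NRF2 (N). Cells of all 4 groups share these drivers, a Crispr-targeted Cdkn2a locus (Cdkn2a KO in the labels) and an EGFP gene under the Tie2/Tek promoter, carried by stable G418-resistant clones that were pooled. Unsorted cells were grown in normoxia at 21% oxygen (UN) or for 2 days at 1% oxygen (UH). SN cells were those with the brightest EGFP, sorted by flow cytometry after 2 days at 1% oxygen and then expanded in normoxia for about 10 days. SH cells were SN cells put back at 1% oxygen for 2 days. The sorted groups thus differ from the unsorted ones in selection, in an earlier hypoxic episode and in the expansion, and these cannot be told apart. The labels call every library EGFP+, although unsorted cells had not been selected for EGFP. Each group had 3 libraries, described by the study as independent. It does not say whether the SN and SH libraries came from separate sorts. If they did not, tests of sorted against unsorted cells measure only the spread between cultures of the same sort.

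Metallothioneins are small, cysteine-rich proteins that bind zinc and copper and thereby buffer free metal in the cell. In mouse liver Mt1 and Mt2 are the main isoforms and are raised by metals, glucocorticoids, oxidative stress and, in several cell types, low oxygen, whereas Mt3 is best known from the brain and Mt4 from stratified epithelia. Mtf1 encodes the zinc-finger factor that binds metal response elements in metallothionein promoters when free zinc rises. Slc30a1 (ZnT1) exports zinc across the plasma membrane, and Slc39a14 (ZIP14) brings zinc, iron and manganese into cells.

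Expression was measured as TPM, a share of all transcripts in a library, which is corrected for transcript length and has the same sum in every library, so the depth of each library is unknown and precision rests on the spread of 3 replicates. The number of genes with a TPM above 0 ran from 18901 to 22369 per library. Mitochondrially encoded transcripts took 6.10% ± 1.27 of the TPM in UN, 2.11% ± 0.43 in UH, 8.10% ± 0.40 in SN and 3.43% ± 1.09 in SH (SD, n = 3 for each group). Of 14 hepatocyte and hepatoblast markers, 9 had a mean of at least 1 TPM over the 12 libraries, led by Krt18 at 107 TPM. Hnf4a, a defining hepatocyte factor, averaged 3.85 TPM in UN cells and 0.108 to 0.263 TPM in the other groups, and Epcam was listed at 0 in the sorted libraries. Mesenchymal markers stood far higher in summed TPM than hepatocyte markers, and 10 of 12 had a mean of at least 1 TPM. Most of that sum was Fn1 and Vim, at means of 2276 and 1106 TPM in SN and 4190 and 3009 TPM in SH cells. Col1a1 was at 6.66 TPM in SN and 22.2 TPM in SH cells, so the sum does not name the cells. Endothelial markers did so for 4 of 12 and leukocyte markers for 3 of 10. Ptprc, which defines leukocytes, had group means of 0.00439 to 0.0718 TPM.

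Mt1 was at 235, 184 and 177 TPM in the UN libraries and at 6046, 4574 and 4138 TPM in the UH libraries. In sorted cells it was at 109, 127 and 215 TPM in SN and at 1476, 1533 and 913 TPM in SH. Every hypoxic library lay above every normoxic one, every UH library lay above every SH library, and the UN and SN libraries overlapped. The order of the means was UH, SH, UN and SN, in which UN and SN were not separated beyond their spread. In the UH libraries Mt1 ranked between 11 and 19 among all genes by TPM, whereas in SN libraries it ranked between 671 and 1486. Bulk RNA does not show whether fewer cells made a transcript or each cell made less, and this holds for every level given here.

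Mt2 was at 35.7, 50.8 and 39.5 TPM in the UN libraries and at 2307, 1837 and 1767 TPM in the UH libraries. Sorted cells held much less, with 5.05, 4.08 and 7.0 TPM in SN and 92.5, 98.8 and 101 TPM in SH. The 4 groups did not overlap at any step of the order UH, SH, UN and SN. Re-exposed sorted cells therefore carried more Mt2 than unsorted normoxic cells, but far less than unsorted hypoxic cells. In SN libraries Mt2 ranked between 9300 and 10437 by TPM, and in UH libraries between 85 and 105. Together, Mt1 and Mt2 took 0.0241% ± 0.00278 of the TPM in UN, 0.689% ± 0.129 in UH, 0.0156% ± 0.00579 in SN and 0.140% ± 0.0340 in SH (SD, n = 3 for each group).

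**Figure D1:**
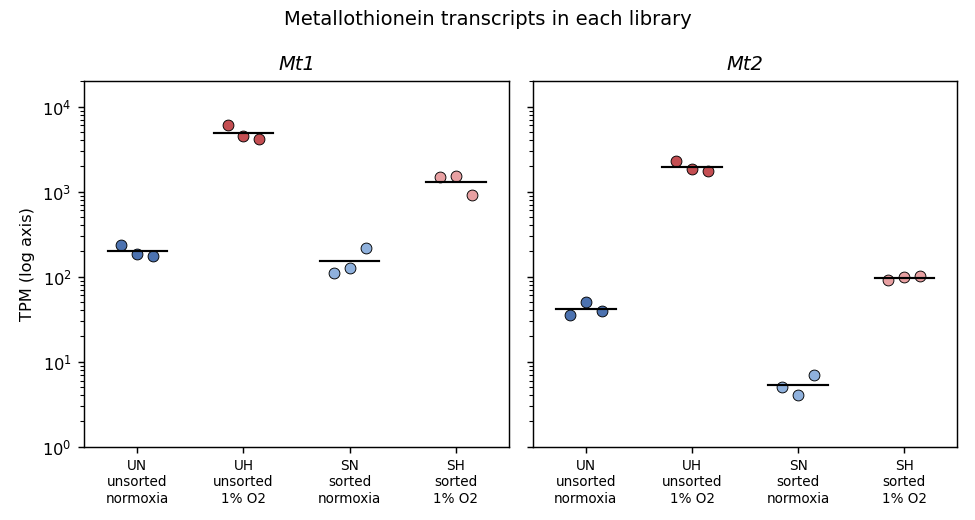
TPM of Mt1 and Mt2 in each of the 12 libraries (points, log axis) with the mean of each group (line); the groups are unsorted (UN, UH) and sorted (SN, SH) cells in normoxia or 1% oxygen. Mt1 overlaps between UN and SN, whereas the SN libraries of Mt2, at 4.08 to 7.0 TPM, lie below all others.

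Sorted and unsorted cells were compared with limma on log2(TPM + 1), in a fit of all 12 libraries to the 18909 genes, and log2 differences on this scale understate the change of genes at low TPM. Calls needed an absolute log2 difference over 1 and, after Benjamini-Hochberg adjustment over the genes of that comparison, a p under 0.05. In normoxia, the untested log2 difference of Mt2 (SN minus UN) was −2.76, and the mean TPM of UN was 7.81 times that of SN. For Mt1 the untested log2 difference was −0.45, and its UN and SN libraries overlapped. Values of both groups may have entered the choice, so the direction in which it pushes these differences is not known. The SN library with 215 TPM counted most in the value of Mt1, which was −0.73 without it and −0.25 without SN replicate 1. In this comparison 3.20% of all genes tested were called higher and 7.57% lower, from which nothing is read for Mt1 and Mt2.

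In hypoxia, both metallothioneins were at lower TPM in every SH library than in any UH library. The untested log2 difference was −1.93 for Mt1 and −4.32 for Mt2, and the choice of genes high in UH cells pushes it in this direction. The mean TPM of UH was 3.76 times that of SH for Mt1 and 20.3 times for Mt2. Here 7.65% of all genes were called higher and 5.35% lower, from which nothing is read for these 2 genes. Over all genes the median log2 difference was 0.168; it was 0.034 after median-of-ratios scaling, which turned the 1447 higher and 1012 lower genes into 1021 and 1323. Under that scaling the differences were −2.15 for Mt1 and −4.54 for Mt2.

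The ratio of Mt1 to Mt2 TPM, which no scaling between libraries can change, was examined after the values had been seen. It was 6.58, 3.61 and 4.48 in the UN libraries and 2.62, 2.49 and 2.34 in the UH libraries. Sorted cells had ratios of 21.7, 31.2 and 30.7 in SN and of 15.9, 15.5 and 9.08 in SH. All 6 sorted libraries had a higher ratio than all 6 unsorted libraries, and within each kind of cell the hypoxic ratios lay below the normoxic ones. The UH and UN values behind the choice enter this ratio, so it is a description and no p is given for it. The mean log2 ratio was higher by 2.54 in SN than in UN cells and by 2.40 in SH than in UH cells.

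The rise of both genes in hypoxia is what they were selected on. In unsorted cells the mean TPM in UH was 24.8 times that in UN for Mt1 and 46.9 times for Mt2, with log2 differences of 4.62 and 5.52. In sorted cells the mean TPM in SH was 8.68 times that in SN for Mt1 and 18.1 times for Mt2, with log2 differences of 3.13 and 3.97. The log2 response of sorted cells was thus below that of unsorted cells by an untested difference of −1.48 for Mt1 and −1.55 for Mt2. These comparisons share libraries with those of sorted against unsorted cells. Called genes made up 5.46% (higher) and 11.8% (lower) of all genes in UH vs UN and 7.47% and 5.0% in SH vs SN, and nothing is read from these shares for the selected genes. The same holds for the difference of responses, in which 8.08% of genes were called higher and 2.18% lower.

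Ranked by log2 difference in UH vs UN, Mt2 stood at 5 of 18909 genes and Mt1 at 23. Just above Mt2 were 2610528A11Rik (5.92) and Tnfrsf9 (5.81), and just below it Ero1l (5.51) and Rn7s2 (5.50). Around Mt1 were Sncb (4.68) and Lppr3 (4.67) above, and Gpx3 (4.51) and Aldh1l2 (4.44) below. In SH vs SN, Mt2 stood at 22, below Gpr35 (4.02) and Bnip3 (3.98) and above Selenbp2 (3.96) and Tenm4 (3.91). Mt1 stood at 63, below Ptges (3.14) and Hgfac (3.13) and above Mpp2 (3.13) and Eno2 (3.12). The scaling of the libraries bears on the unsorted response. With TPM as deposited the median log2 difference of all genes in UH vs UN was −0.191 with 1032 higher and 2222 lower genes, and median-of-ratios scaling gave a median of 0 when rounded to 2 decimals, with 1564 higher and 1217 lower. It gave log2 differences of 4.97 for Mt1 and 5.88 for Mt2. For the difference of responses the scaling moved the median from 0.246 to 0.022 and the counts from 1527 higher and 412 lower to 901 and 782.

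Mt3 was listed at 0 in 11 of the 12 libraries and at 0.330 TPM in UH replicate 1. Mt4, the remaining family member, was listed at 0 in all 12. Expression of the family in these cells was thus that of Mt1 and Mt2 at the resolution of this table, and neither Mt3 nor Mt4 was tested.

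The 4 metallothionein genes lie on the + strand of chromosome 8 within 43131 bases (GRCm38, chr8:94137197-94180327, GENCODE M21). In order of position these are Mt4 (start 94137197), Mt3 (94152607), Mt2 (ENSMUSG00000031762, chr8:94172664-94173568) and Mt1 (ENSMUSG00000031765, chr8:94179082-94180327). Because the family is similar in sequence, the annotated transcripts were compared in stretches of 31 bases. Mt1 shared 0 of its 1273 such stretches with any other gene, and Mt2 shared 3 of 573, all with Pip5k1a, which reached 55.8 TPM at most. Stretches of this length thus tell Mt1 and Mt2 apart over nearly all of both transcripts. An antisense gene model, Gm45774, overlaps Mt2 on the opposite strand, and the libraries were made with a stranded kit.

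The genes beside the cluster differed among themselves. Bbs2, a ciliary protein gene 38269 bases before the cluster, had log2 differences by sorting of −0.08 in normoxia and 0.50 in hypoxia, and by hypoxia of 0.16 in unsorted and 0.73 in sorted cells (adjusted p = 0.0206 for the last, limma, short of the fold threshold). Nup93, a nuclear pore gene 34237 bases after it, had 0.41 and 0.80 and was called lower in hypoxia (−2.14 in UH vs UN, adjusted p = 1.23e-07; −1.75 in SH vs SN, adjusted p = 9.86e-07; limma). Of the 5 protein-coding genes on each side, 9 were tested, and their log2 differences in SN vs UN ran from −0.91 (Nlrc5) to 0.41 (Nup93). In SH vs UH, Gnao1 (1.03), Cpne2 (1.56) and Nlrc5 (2.23) were called higher, opposite to Mt1 and Mt2, and the call of Gnao1 ended without UH replicate 1 (0.76), without SH replicate 1 (0.94) and with median-of-ratios scaling (0.82). Of all genes 7.65% were called higher there, and 9 neighbours are too few to set against this. Nlrc5 was in the direction of Mt1 and Mt2 in 2 other comparisons, at −0.91 in SN vs UN (adjusted p = 0.0191, limma, short of the fold threshold) and called higher in SH vs SN (2.45, adjusted p = 2.71e-05, limma), but at −0.69 in UH vs UN. Cpne2 was called lower in UH vs UN (−1.27; −0.92 with median-of-ratios scaling). Of all genes 11.8% were called lower with hypoxia in unsorted cells, and 5.0% lower and 7.47% higher in sorted cells. Slc12a3, the other one, did not pass the filter.

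Promoters are shown because Mt1 and Mt2 moved together across oxygen levels but to different extents across sorting, and Slc30a1, the zinc exporter, is set beside them because its level differed little between groups. Sequences are from RefSeq (GRCm38.p6), 250 bases before to 50 bases after the RefSeq start of each gene, and 5 of the 6 genes had an entry; Slc39a14 is named only. The searched motifs were the core of the metal response element (TGCACNC or TGCGCNC) and the core of the hypoxia response element (ACGTG or GCGTG), on both strands, and capitals mark every match. Mt1 (chr8:94178839-94179138, + strand), Mt2 (chr8:94172368-94172667, + strand) and Slc30a1 (chr1:191906531-191906830, + strand) read as follows.
Mt1: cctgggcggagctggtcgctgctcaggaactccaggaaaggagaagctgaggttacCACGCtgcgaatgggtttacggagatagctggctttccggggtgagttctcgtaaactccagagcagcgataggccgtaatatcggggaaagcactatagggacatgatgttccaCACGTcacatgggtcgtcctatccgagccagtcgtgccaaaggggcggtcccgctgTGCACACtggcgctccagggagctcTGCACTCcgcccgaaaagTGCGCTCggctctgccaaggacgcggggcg
Mt2: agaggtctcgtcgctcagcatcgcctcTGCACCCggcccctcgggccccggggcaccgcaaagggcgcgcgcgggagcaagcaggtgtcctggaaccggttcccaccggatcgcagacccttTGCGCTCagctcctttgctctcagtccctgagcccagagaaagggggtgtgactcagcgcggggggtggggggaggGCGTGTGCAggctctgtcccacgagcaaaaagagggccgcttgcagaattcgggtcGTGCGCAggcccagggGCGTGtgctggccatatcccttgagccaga
Slc30a1: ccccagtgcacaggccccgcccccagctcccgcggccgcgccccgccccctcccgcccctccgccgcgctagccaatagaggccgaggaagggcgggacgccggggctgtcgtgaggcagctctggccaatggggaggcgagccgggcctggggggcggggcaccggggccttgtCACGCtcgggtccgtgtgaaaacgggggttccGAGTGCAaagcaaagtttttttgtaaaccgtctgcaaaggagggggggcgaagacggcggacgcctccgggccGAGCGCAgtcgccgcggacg

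The Mt1 window held 3 metal response element cores and 2 hypoxia response element cores. That of Mt2 held 4 and 2, and the metal core at −50 to −44 from the start overlapped the hypoxia core at −52 to −48. Slc30a1 had 2 and 1, Mt3 had 1 and 0, and Mtf1 had 0 of either. Among 32817 promoter windows of the same length, 25.7% held at least 1 metal core, 1.97% at least 3 and 0.518% at least 4. The hypoxia core is short and common: 43.8% of windows held at least 1 and 20.6% at least 2. A match of letters is a description of the sequence and not evidence of binding, and no match says only that these letters are not in the window. Each window rests on a single RefSeq start, and sequence outside it was not searched. Mt1 has 3 annotated transcripts, so its counts may not cover the promoter of each.

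Mtf1 (ENSMUSG00000028890, chr4:124802104-124849800, + strand) was at 8.32, 7.46 and 9.19 TPM in UN and 5.21, 6.19 and 5.42 TPM in UH libraries. It was at 7.57, 7.42 and 6.76 TPM in SN and 5.24, 4.97 and 5.29 TPM in SH libraries. All 6 hypoxic libraries lay below all 6 normoxic libraries, while sorted and unsorted cells overlapped at each oxygen level. Across oxygen levels the sensor gene was therefore lower where Mt1 and Mt2 were higher. Its log2 difference was −0.17 in normoxia (SN vs UN; 95% interval −0.45 to 0.10, adjusted p = 0.334, limma) and −0.10 in hypoxia (SH vs UH; 95% interval −0.37 to 0.18, adjusted p = 0.572, limma). Between oxygen levels the untested log2 differences were −0.50 in unsorted cells, or −0.18 with median-of-ratios scaling, and −0.42 in sorted cells. The small differences by sorting depended on the scaling and on single libraries: median-of-ratios scaling gave −0.06 in normoxia and −0.29 in hypoxia (adjusted p = 0.742 and 0.0849, limma), and they were −0.11 without UN replicate 3 and −0.03 without UH replicate 2. The gene overlaps 1110065P20Rik on the opposite strand, which reached 33.1 TPM at most, and an rRNA model on its own strand, n-R5s192, which was listed at 0 in all 12 libraries.

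Slc30a1 (ENSMUSG00000037434, chr1:191906767-191913247, + strand) was at 2.75, 2.23 and 1.86 TPM in UN and 1.58, 1.84 and 2.55 TPM in UH libraries. Sorted cells had 2.96, 2.66 and 1.95 TPM in SN and 2.29, 2.51 and 2.10 TPM in SH. All neighbours in the order of means overlapped, so no group stood apart. An antisense model on the opposite strand, 1700034H15Rik, overlaps the gene and reached 1.55 TPM, close to the level of Slc30a1 itself. The log2 difference was 0.10 in normoxia (SN vs UN; 95% interval −0.28 to 0.48, adjusted p = 0.710, limma) and 0.15 in hypoxia (SH vs UH; 95% interval −0.23 to 0.54, adjusted p = 0.509, limma). At about 2 TPM the added 1 shrinks any difference, and a pseudocount of 0.1 gave 0.14 and 0.22, whereas median-of-ratios scaling gave 0.18 and 0.01. Its hypoxia differences were −0.14 in unsorted cells, which became 0.10 with median-of-ratios scaling, −0.27 without UH replicate 3 and −0.04 without UN replicate 1 or UH replicate 1, and −0.08 in sorted cells, or 0.01 without SN replicate 1. The difference by sorting was 0.01 in normoxia without UN replicate 3 or SN replicate 1 and 0.23 without SN replicate 3, and in hypoxia it was 0.05 without UH replicate 1 and 0.28 without UH replicate 3.

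Slc39a14 (ENSMUSG00000022094, chr14:70303469-70351425, − strand) had more TPM than Mtf1 or Slc30a1 in every library, with 47.7, 22.0 and 24.8 TPM in UN and 18.2, 28.6 and 39.0 TPM in UH libraries. In sorted cells it was at 26.1, 24.0 and 28.6 TPM in SN and 31.2, 28.8 and 19.0 TPM in SH. Libraries of each group overlapped those of every other. The log2 difference was −0.17 in normoxia (SN vs UN; 95% interval −0.85 to 0.50, adjusted p = 0.720, limma) and −0.08 in hypoxia (SH vs UH; 95% interval −0.76 to 0.59, adjusted p = 0.857, limma). Its direction rested on single libraries. Without UN replicate 1, the library at 47.7 TPM, the difference in SN vs UN was 0.16, and in SH vs UH it was 0.17 without UH replicate 3 and 0.13 without SH replicate 3. Median-of-ratios scaling gave −0.06 for SN vs UN and −0.30 for SH vs UH. A difference between sorted and unsorted cells within these wide intervals would not have been seen. Between oxygen levels the untested log2 differences were −0.11 in unsorted cells, which became 0.23 with median-of-ratios scaling, 0.22 without UN replicate 1 and 0.17 without UH replicate 1, and −0.02 in sorted cells, which became 0.19 without SH replicate 3 and 0.04 without SN replicate 3.

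**Figure D2:**
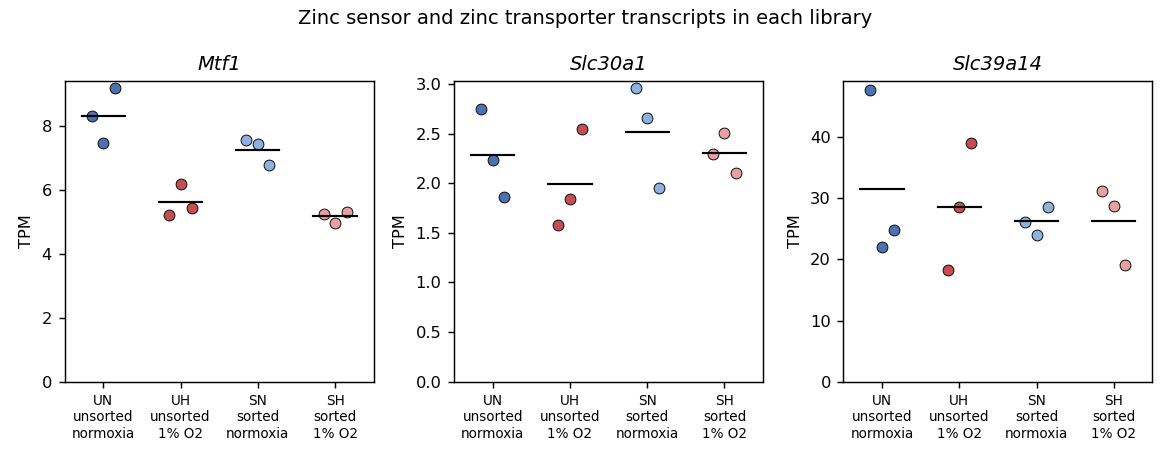
TPM of Mtf1, Slc30a1 and Slc39a14 in each of the 12 libraries (points, linear axes from 0) with the mean of each group (line). Hypoxic libraries of Mtf1 lie between 4.97 and 6.19 TPM, below the normoxic ones, and the groups of both transporters overlap.

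Zinc transporters were then taken as families, ZnT (Slc30a1 to Slc30a10), which move zinc out of the cytosol, and ZIP (Slc39a1 to Slc39a14), which move it in. Of these 24 genes 20 were tested. Calls in normoxia (SN vs UN) were 0 higher and 2 lower, and those in hypoxia (SH vs UH) were 0 higher and 1 lower. With 7.57% and 5.35% of all genes called lower, these are shares near the background and no result about transporters as a group. The median log2 difference of the 20 was −0.20 in SN vs UN, where that of all genes was −0.06, and −0.10 in SH vs UH, against 0.17. Among the ZnT genes 0 of 8 were called by limma in either comparison, and 1 had an unadjusted p under 0.05 in each. In SH vs UH this was Slc30a2, at 1.05, 0.723 and 1.02 TPM in UH and 0.0329, 0 and 0 TPM in SH libraries. It passed the filter only through its UH libraries, so its levels are a description, and neither that p nor a call of it in any other setting is a result. Slc30a9, at 83.0 ± 15.0 TPM (SD, n = 3) in UN cells, had the highest mean of this family.

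Slc39a13 (ZIP13), which moves zinc out of the Golgi and of vesicles, was at 97.5, 164 and 159 TPM in UN and 39.8, 50.2 and 48.5 TPM in SN libraries. In hypoxia it was at 243, 284 and 270 TPM in UH and 101, 93.3 and 86.3 TPM in SH. Sorted libraries lay below unsorted ones at both oxygen levels, and hypoxic above normoxic ones in both kinds of cell. The log2 difference was −1.55 in normoxia (SN vs UN; standard error 0.175, adjusted p = 4.92e-05, limma) and −1.50 in hypoxia (SH vs UH; standard error 0.175, adjusted p = 4.45e-05, limma). The rise in SH vs SN was at the threshold, with a log2 difference of 1.00, and its call ended without SN replicate 1 (0.90), without SH replicate 1 (0.95) and with rescaling without mitochondrially encoded genes (0.94).

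Slc39a4 (ZIP4), an importer at the plasma membrane, was at 7.34, 14.0 and 14.8 TPM in UN and 2.80, 3.33 and 3.08 TPM in UH libraries. The sorted cells had 4.68, 4.45 and 3.70 TPM in SN and 3.60, 4.68 and 2.86 TPM in SH. Only the UN libraries stood apart, above all others. It was called lower in SN vs UN (log2 difference −1.26, adjusted p = 0.00163, limma) and in UH vs UN (−1.63, adjusted p = 0.000154, limma). Slc39a6 (ZIP6) was called higher in UH vs UN with a log2 difference of 1.08 and was at 0.97 without UN replicate 2 and 0.98 without UH replicate 3, past the fold threshold no longer. Without the chosen Slc30a1 and Slc39a14, 18 transporters were tested in hypoxia, and 1 was called higher and 1 lower in unsorted and 1 higher and 0 lower in sorted cells, at or below the shares of all genes (5.46% and 11.8%, and 7.47% and 5.0%).

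**Figure D3:**
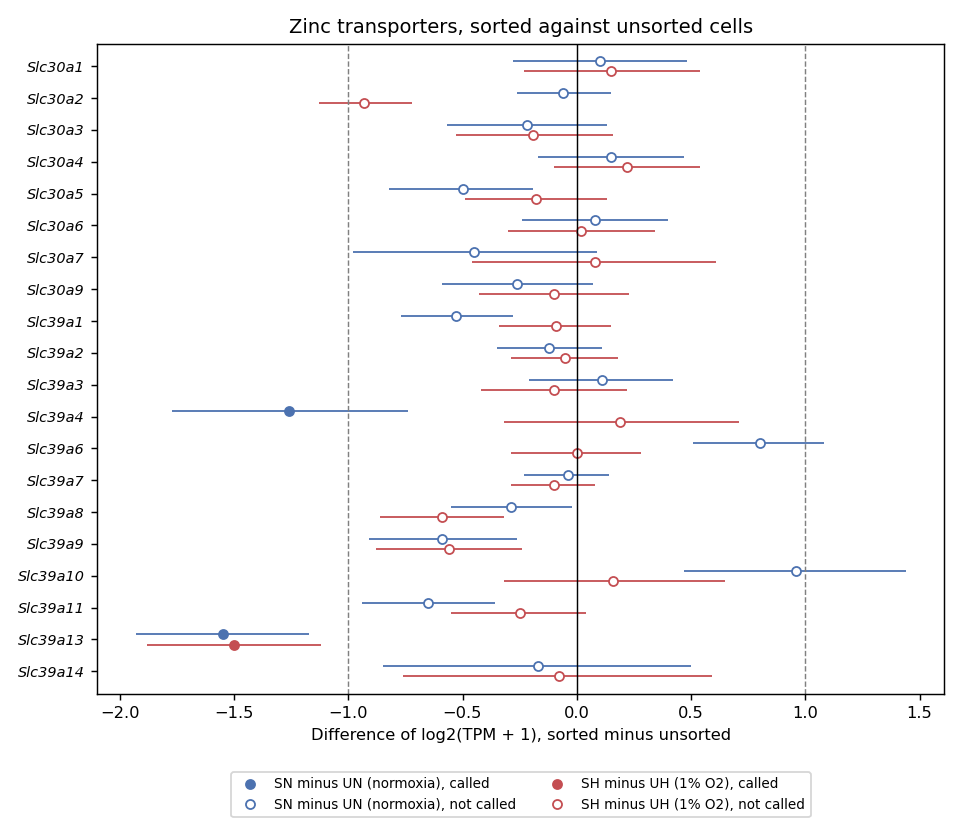
Difference of log2(TPM + 1) between sorted and unsorted cells for the 20 zinc transporters tested, in normoxia (SN minus UN) and in 1% oxygen (SH minus UH), with 95% intervals from limma; filled points passed both thresholds and dashed lines mark an absolute difference of 1. Slc39a13 is lower in both comparisons, at −1.55 and −1.50, and Slc39a4 is lower in normoxia, at −1.26.

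Of 8 genes linked to MTF1 in the literature, which include Slc30a1, 1 rose (SN vs UN) and 1 fell (SH vs UH) with sorting, beside 3.20% of all genes called higher in the former comparison and 5.35% lower in the latter, which for 8 genes decides nothing about the group. Their median log2 differences were 0.05 and −0.01. Gclc, the catalytic subunit of the enzyme that starts glutathione synthesis, was the one higher in SN cells (log2 difference 1.08, adjusted p = 0.000371, limma; 0.90 without UN replicate 1). Pgf, which encodes placental growth factor, was the one lower in SH cells, at 4.39, 4.09 and 1.61 TPM against 178, 172 and 152 TPM in UH libraries. In hypoxia 7 of the 8 were tested without Slc30a1, and 2 rose in unsorted cells, while 3 rose and 1 fell in sorted cells. The shares of all genes called higher and lower were 5.46% and 11.8% in unsorted and 7.47% and 5.0% in sorted cells, and 7 genes are too few to set against them. Ndrg1 rose in both, from 95.6 ± 39.5 to 1102 ± 41.3 TPM in unsorted and from 89.3 ± 18.6 to 985 ± 159 TPM in sorted cells (SD, n = 3 in each). The difference of its responses was −0.16 (standard error 0.395, adjusted p = 0.801, limma). Ndrg1 libraries of SH cells overlapped those of UH cells, and SH replicate 3, at 802 TPM, lay below them.

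Transcription factors reported at metallothionein promoters are given as single genes. Of 10 such genes (Mtf1, Nr3c1, Nfe2l2, Hif1a, Arnt, Stat3, Usf1, Usf2, Sp1 and Sp3), 0 were called by limma in SN vs UN and 3 had an unadjusted p under 0.05, where 3.20% of all genes were called higher and 7.57% lower, so a list of 10 decides little. Those 3 were Nr3c1 (0.87, adjusted p = 0.00351, limma), Hif1a (−0.83, adjusted p = 0.0138, limma) and Usf1 (−0.51, adjusted p = 0.00118, limma), all short of the fold threshold. In SH vs UH, where the shares of all genes were 7.65% and 5.35%, only Hif1a was called, as lower, from 103 ± 33.8 TPM in UH to 46.6 ± 9.07 TPM in SH (SD, n = 3 in each; log2 difference −1.09, adjusted p = 0.00228, limma). Stat3 (−0.83, adjusted p = 0.0158, limma) and Usf1 (−0.32, adjusted p = 0.0142, limma) were lower there by less than the fold threshold. The call of Hif1a ended without UH replicate 3 (−0.88) and without SH replicate 3 (−0.93). Nr3c1, the glucocorticoid receptor, was called higher in UH vs UN at 1.01, and was under the threshold without UN replicate 2 (0.86), UH replicate 2 (0.98) or UH replicate 3 (0.83) and with rescaling without mitochondrially encoded genes (0.95). Of the 9 without Mtf1, 0 were called by limma in SH vs SN, where 5 had an unadjusted p under 0.05 and 7.47% of all genes were called higher and 5.0% lower. None of the transcripts says anything of the activity of these proteins.

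Copper, which metallothioneins also bind, was followed through 11 genes of its handling. Slc31a2 (CTR2) was the one called in SN vs UN, lower by a log2 difference of −1.48 (adjusted p = 0.000297, limma), and 0 were called in SH vs UH. An unadjusted p under 0.05 (limma) was found for 7 of the 11 in the former and 5 in the latter. No share of all genes is given at that threshold, so nothing is read from such counts, here or in the other lists. The counts of calls are close to the shares of all genes, 7.57% lower for the former comparison, and 7.65% higher and 5.35% lower for the latter. Atp7b, the copper ATPase of hepatocytes, rose in hypoxia from 0.857 ± 0.232 to 16.2 ± 4.04 TPM in unsorted cells and from 1.46 ± 0.281 to 11.1 ± 0.991 TPM in sorted cells (SD, n = 3 in each). Its log2 differences were 3.19 and 2.30 (adjusted p = 2.17e-07 and 4.17e-06, limma). Slc31a2 also rose in SH vs SN, by 1.22 (adjusted p = 0.000826, limma).

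Of 10 genes of metal and proteotoxic stress, Gclm, the modifier subunit of the glutathione-forming enzyme, was lower in sorted cells at both oxygen levels. Its mean was 639 ± 224 TPM in UN, 228 ± 10.1 in SN, 93.7 ± 10.5 in UH and 45.2 ± 4.43 in SH (TPM; SD of 3 libraries). The log2 differences were −1.42 in normoxia (SN vs UN; adjusted p = 0.000494, limma) and −1.03 in hypoxia (SH vs UH; adjusted p = 0.00295, limma), the second being −0.95 without UH replicate 3 and −0.96 without SH replicate 1. Slc3a2, a subunit of cystine and amino acid exchangers, was the one gene called higher, in SH vs UH at 1.08, which became 0.86 with median-of-ratios scaling. Of all genes, 3.20% were called higher and 7.57% lower with sorting in normoxia and 7.65% and 5.35% in hypoxia, so these counts of 10 genes are no result about the group. In hypoxia Gclm, Hsph1 and Txnrd1 fell in both kinds of cell, and 0 of the 10 were called higher. Of all genes, 5.46% were called higher and 11.8% lower in UH vs UN and 7.47% and 5.0% in SH vs SN, so that 0 of 10 called higher is no result. The log2 differences in UH vs UN were −2.69, −1.50 and −1.26, and in SH vs SN −2.31, −1.24 and −1.10; Txnrd1 was at −0.91 in UH vs UN with median-of-ratios scaling. Hmox1, which answers heavy metals and heme, was not called in any comparison, with log2 differences of 0.47, −0.15, 0.86 and 0.24 in SN vs UN, SH vs UH, UH vs UN and SH vs SN. It was short of the fold threshold only in UH vs UN (adjusted p = 0.000694, limma) and SN vs UN (adjusted p = 0.0338, limma). Its UH libraries all lay above its UN libraries.

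Among 9 glucocorticoid-responsive genes, 7 were tested. Dusp1, a MAP kinase phosphatase, was called higher in SN vs UN (log2 difference 1.31, adjusted p = 0.000442, limma), and 0 genes were called in SH vs UH, where 2 had an unadjusted p under 0.05 (limma), beside 3.20% of all genes called higher in the former and 7.65% higher and 5.35% lower in the latter. In UH vs UN, Dusp1 (2.19) and Per1 (1.06) were called higher and Tsc22d3 (−1.19) and Fkbp5 (−1.17) lower, beside 5.46% and 11.8% of all genes. Fkbp5 was also lower in SH vs SN (−1.08). The calls in unsorted cells ended for Per1 without UN replicate 1 (0.86), UH replicate 2 (0.98) or UH replicate 3 (0.93), for Fkbp5 without UH replicate 1 (−0.98) and with median-of-ratios scaling (−0.85), and for Tsc22d3 with that scaling (−0.85).

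Markers of other cell types moved with the sorting. The summed TPM of the 12 mesenchymal markers was 8764, 5436 and 5111 in UN, 13427, 18113 and 16077 in UH, 3724, 3628 and 3416 in SN and 7543, 7421 and 6830 in SH libraries. The largest falls in sorted cells were those of Col3a1, Col1a2 and Col1a1 (log2 differences −7.62, −7.46 and −6.38 in normoxia and −9.57, −9.18 and −7.06 in hypoxia; highest adjusted p of the 6 = 8.46e-06, limma). Pdgfra, Acta2 and Postn were, like these, called lower in sorted cells at either oxygen level. Of 11 mesenchymal markers tested, 6 were called lower and 0 higher in SN vs UN, where 7.57% and 3.20% of all genes were. In SH vs UH, 7 were called lower and 0 higher, beside 5.35% and 7.65% of all genes. Fn1, the highest of them at a mean of 3074 TPM, was not called (0.04 in normoxia and 0.27 in hypoxia). Nor was Vim, at a mean of 2851 TPM (−0.33 and −0.97), and these genes made up most of the sum. The sum of the mesenchymal markers was lower in sorted than in unsorted cells at each oxygen level, and the part of this in the lower metallothionein levels of sorted cells was not tested. In the same comparisons the 14 hepatocyte markers summed to 256 ± 104 TPM in UN, 207 ± 18.5 in UH, 146 ± 25.2 in SN and 149 ± 42.9 in SH cells. The 12 endothelial markers summed to 4.09 ± 1.33 TPM in UN, 26.0 ± 4.89 in UH, 7.59 ± 0.684 in SN and 20.2 ± 3.39 in SH cells. Flt1 alone had means of 2.52, 23.0, 1.33 and 3.86 TPM in this order, so nearly all of the UH sum was Flt1. The 10 leukocyte and macrophage markers summed to 98.2 ± 16.3, 48.4 ± 1.88, 330 ± 22.6 and 131 ± 5.31 TPM in the same order (SD, n = 3 in each), most of it Cd14. Of 12 hepatocyte markers tested, 8 were called lower in SN vs UN, most of all Dlk1 (−5.06), Krt8 (−3.43) and Cdh1 (−2.68), and 1 higher, Afp (1.86), where the shares of all genes were 7.57% and 3.20%. In SH vs UH, 2 were called lower, Dlk1 (−5.25) and Krt8 (−1.73), and again Afp higher (1.40), where the shares were 5.35% and 7.65%. Of the others, Tek, whose promoter drives the EGFP, was called higher by 1.62 (normoxia) and 1.80 (hypoxia), Cd14 by 1.80 and 1.38 and Cd68 by 1.10 and 1.93, the first of which was 0.91 without SN replicate 3. Cd14 and Cd68 were 2 of 4 leukocyte markers tested, a list too short to set against the shares of all genes. The remaining ones, Lyz2 (−0.51 in normoxia and −0.53 in hypoxia) and Csf1r (0.32 and −0.28), were not called. In SH vs UH, Esam was called higher (2.15) and Flt1 lower (−2.28). Plvap was higher by 1.02 in normoxia, which passed the fold threshold, and by 0.97 in hypoxia, which did not (0.94 without UN replicate 2, 1.00 without SN replicate 2 and 0.93 without SN replicate 3 for the first), and the difference of −0.04 between these had an adjusted p of 0.921 (limma). The tests of these markers are limma's, with the same thresholds. Mitochondrially encoded transcripts were also at a lower share in hypoxia, from 6.10% in UN to 2.11% in UH and from 8.10% in SN to 3.43% in SH cells. Their part in the metallothionein levels was not tested beyond rescaling without them. Settings other than leaving out a library, that rescaling among them, put the untested UH vs UN difference at 4.56 to 4.97 for Mt1. For Mt2 it was 5.47 to 5.88, and in SH vs SN the ranges were 3.06 to 3.15 and 3.92 to 4.19.

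UN replicate 1 differed from the other UN libraries in its mesenchymal sum of 8764 TPM and its hepatocyte sum of 136 TPM, against 308 and 324 TPM. Mt2 stayed lower in SN than in UN cells without it. SH replicate 3 had the lowest Mt1 of its group and a mitochondrial share of 4.68%, against 2.94% and 2.66%. Mt1 and Mt2 stayed lower in SH than in UH cells without it.

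Across the 12 libraries, Pearson's r of log2(TPM + 1) was 0.934 between Mt1 and Mt2. Among 13518 other genes with a mean of at least 1 TPM, those most like Mt1 were 5330426P16Rik (r = 0.991), Vim (0.990), Gm27177 (0.989), Lmf1 (0.987) and 2310047M10Rik (0.987). Those most like Mt2 were Metrnl (0.988), Dhrs7 (0.988), Inha (0.987), Phospho1 (0.987) and Cyb5r1 (0.986). These lists had 0 genes in common. Vim, which encodes vimentin, had means of 1396 TPM in UN, 5894 in UH, 1106 in SN and 3009 TPM in SH cells, and Inha, a subunit of inhibin, 6.26, 57.6, 1.74 and 13.7 TPM. The libraries form 4 groups that share their treatment, so these coefficients describe the groups' levels and carry no p. By Spearman's rho, 0 of the 5 genes most like Mt1 and 1 of those most like Mt2, Metrnl, were among the same 5. The 5 genes most like Mt2 by rho also held 2310047M10Rik and Lmf1, which stand in the list of Mt1 by r.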

How the data were processed

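RNA-seq of 12 cultures was analysed from the table of TPM that the authors deposited, made from stranded paired-end mRNA libraries with nf-core/rnaseq 3.12.0 (genome build mm10 per the labels); the annotation is not given in the sources used here. The table is the Salmon output of that pipeline, with no scaling between libraries. TPM keeps no depth, so no counting intervals are given. The 6 genes and the lists were chosen with earlier results of these data known. Groups were taken from the labels, and no library was left out. TPM were transformed as log2(TPM + 1), and the 18909 genes with a mean of at least 0.1 TPM went into a fit by limma 3.58.1 under R 4.3.3 (a mean for each of 4 groups, empirical Bayes moderation with a trend), with Benjamini-Hochberg adjustment over all genes tested in each comparison. The fit was tested on simulated data. Python 3.11.15 was used for the remaining steps, with pandas 2.3.3 and numpy 2.4.6 for tables and correlations and matplotlib 3.10.9 for figures. An exact permutation test of the Mt1 to Mt2 ratio was run with scipy 1.17.1.

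Gene identifiers were matched to GENCODE M21 on GRCm38 for coordinates, and 45143 (98.8%) were found. Promoters came from a RefSeq table of GRCm38.p6. A rule set with those earlier results known chose which genes to name: the 6 genes and Mt4, at most 3 called genes in each direction from each list and comparison, the 5 genes most like Mt1 and Mt2, the 5 protein-coding genes on each side of the cluster, and the genes ranked beside Mt1 and Mt2. Marker genes it took are named for sorted against unsorted cells only. Genes named beyond it (Slc30a2, Slc30a9, Hmox1, Krt18, Hnf4a, Epcam, Ptprc, further mesenchymal markers, overlapping or sequence-sharing genes and the list of transcription factors) were chosen after their values were seen. Alternatives were a pseudocount of 0.1, no filter, a filter at a mean of 1 TPM, median-of-ratios scaling, rescaling without mitochondrially encoded genes or without the 20 highest genes, fitting only the 2 groups compared, no trend in the moderation, a replicate block, leaving out each library, and Spearman's rho for the most similar genes. The planned limma test of Mt1 and Mt2 in SH vs UH was run but is not printed, since the UH values entered their choice. The ratio of Mt1 to Mt2 was added after seeing the data.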

Additional observations from a re-analysis of the deposited data

Results flagged for a closer look

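The hypoxia response differed between sorted and unsorted cells past both thresholds for 1 of 18 zinc transporters tested, 2 of 7 genes linked to MTF1, 2 of 11 copper genes, 2 of 7 glucocorticoid-responsive genes and 2 of 9 genes beside the metallothionein cluster, and for 0 of 10 stress genes and 0 of 9 transcription factors (limma; 3 and 0 with an unadjusted p under 0.05). Of all genes, 8.08% were higher and 2.18% lower in this comparison, and lists this short decide nothing against that. Each value is the log2 response of sorted cells minus that of unsorted cells, followed by the standard error and by the adjusted p (limma, all genes tested). The response was smaller in sorted cells for Pgf (−5.50, 0.342, limma adjusted p = 3.61e-06) and Dusp1 (−2.09, 0.284, limma adjusted p = 0.000582). The difference was also below 0 for Sgk1 (−1.19, 0.342, limma adjusted p = 0.0288), whose call ended in 8 of 20 other settings, and for Cp (−1.11, 0.233, limma adjusted p = 0.00676), which was at −0.99 without UH replicate 3 and −0.96 without SH replicate 3. It was above 0 for Selenow (1.25, 0.253, limma adjusted p = 0.00546), Slc31a2 (1.31, 0.304, limma adjusted p = 0.0110) and Slc39a4 (1.45, 0.333, limma adjusted p = 0.0105). Beside the cluster it was above 0 for Cpne2 (1.48, 0.342, limma adjusted p = 0.0106) and Nlrc5 (3.14, 0.373, limma adjusted p = 0.000250). Median-of-ratios scaling brought Selenow to 0.91 and Slc31a2 to 0.98. The cause was not tested.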

How the results depend on the processing

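With a pseudocount of 0.1, called genes were 990 up and 2402 down in SN vs UN, 2810 and 1550 for SH vs UH, 1580 up in UH vs UN and 2854 up for SH vs SN. Median-of-ratios scaling moved UH vs UN to 1564 up and 1217 down, and gave 901 and 782 for the difference of responses, where leaving out a library gave 344 to 636 lower. Zinc transporters called higher in SN vs UN were 1 with median-of-ratios scaling and without the 20 highest genes, and 0 to 1 on leaving out a library. Those lower in SH vs UH were 3 with the pseudocount, 2 with that scaling or without the 20 highest genes, and 1 to 2 on leaving out a library. In UH vs UN, 2 were higher with the pseudocount or the scaling and 0 to 2 on leaving out a library; in SH vs SN, 0 were higher without mitochondrially encoded genes and 0 to 1 on leaving out a library. In the difference, 1 was lower with the pseudocount, 2 with the scaling and 0 to 1 on leaving out a library. Counts with the pseudocount for these comparisons (SH vs UH, UH vs UN and the difference), and those of 2 for SH vs UH, include Slc30a2, which passed the filter only through its UH libraries, so its entry into a count is no result. The scaling put Mt1 at 4.97 and Mt2 at 5.88 in UH vs UN and at −1.83 and −1.90 in the difference, and the pseudocount put Mt2 at 4.19 in SH vs SN. Leaving out a library put Slc39a14 between −0.38 and 0.16 in normoxia (SN vs UN) and between −0.36 and 0.17 in hypoxia (SH vs UH). In SN vs UN the untested log2 difference of Mt2 ran from −2.96 to −2.64 over the other settings. On leaving out a library it ran from −2.94 to −2.61. Replicate numbers share only a name, and with a replicate block 605 genes went up and 1428 down in SN vs UN, 1458 and 1009 for SH vs UH, 1032 and 2224 for UH vs UN, 1410 and 947 for SH vs SN and 1522 and 400 in the difference. The cause was not tested. A fit of the compared groups was not run for the difference. With 3 libraries per group, a single line and TPM without depth, small changes can be missed, and RNA gives neither zinc nor protein; sorting, the earlier hypoxia and expansion cannot be told apart.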
